A study of Rattus norvegicus with 5 samples.

Results

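The molecular chaperones described here are the HSP70, HSP110, HSP90, HSP60 and HSP10 genes, the J-domain (DNAJ) genes and the subunits of the cytosolic chaperonin CCT, measured in fat from around the rat pancreas. Members were the genes whose symbol matched these families on a probe set annotated with exactly 1 symbol, each represented by its probe set with the highest mean over the 5 arrays. This gave 62 genes of the 14217 with such a probe set, on 97 probe sets: 12 HSP70 or HSP110 genes, 2 HSP90 genes, the genes of HSP60 and HSP10, 4 J-domain genes of the DNAJA type, 12 of the DNAJB type and 23 of the DNAJC type, and 7 CCT subunits. A filter that kept probe sets whose mean lay above the 30th percentile left 58 of them, and Dnajb3, Dnajb7, Dnajc6 and Hspa1l were too dim to be tested. Hspa8 and Hsp90aa1, the constitutive HSP70 and the stress-inducible HSP90 of the cytosol, have no probe set that the rule takes and are not analysed here.

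Chaperones bind unfolded stretches of other proteins. HSP70 proteins do so in cycles of ATP hydrolysis that J-domain proteins start and nucleotide exchange factors such as HSP110 end, HSP90 acts later on kinases and receptors, and the chaperonins enclose a client in a chamber. Each compartment has its own set: in the endoplasmic reticulum (ER) BiP (Hspa5) and GRP94 (Hsp90b1), in mitochondria mortalin (Hspa9) with HSP60 (Hspd1) and HSP10 (Hspe1). Heat shock factor drives the cytosolic and mitochondrial genes under stress, and the unfolded protein response drives those of the ER, the organelle in which fat cells fold the adipokines they secrete.

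The samples were mesenteric adipose tissue surrounding the pancreas of male Wistar rats, 1 rat genome array per sample. Cafeteria feeding, a regimen in which fat supplied 66% of the calories, is represented by 2 arrays, and standard chow, in which fat supplied 8%, by 3. Both diets lasted 30 days in rats aged 7 weeks at the start, the labels name no added allele or agent and describe the samples as independent. Values are log2 expression levels as deposited, differences are cafeteria minus standard on that scale, and p-values are from limma, two-sided, with Benjamini-Hochberg adjustment over all 21729 probe sets kept. With 2 against 3 arrays, an exact permutation test of a single gene cannot go below p = 0.1.

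The fat cell markers were bright on every array: Adipoq, the adiponectin gene, read 13.11 and 13.28 on the cafeteria arrays, against 12.94, 13.09 and 13.08 on the standard arrays. All 8 fat cell markers had a higher mean in cafeteria samples, with a median difference of 0.34. Standard replicate 1 carried transcripts of pancreatic acinar cells, with the lipase Pnlip at 10.11 on that array and 4.23 to 4.45 on the other 4. Over the 19 acinar genes that passed the filter, standard replicate 1 deviated by 2.77 from the 5-array mean, and the other arrays by -0.80 to -0.55. That array was the highest for 17 of the 19, but Cela3b and Cpa1 were bright on other arrays too. Cela3b read 9.52 and 6.46 in cafeteria samples, against 9.86, 9.70 and 8.88 in standard samples. Cpa1 read 7.38 and 9.07 in cafeteria samples, against 9.37, 5.34 and 5.94 in standard samples. In whole tissue, a larger share of one cell type and more transcript per cell cannot be told apart.

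Promoter sequences are given for members whose windows hold an element of the heat shock or ER stress response, because the results set these groups side by side. RefSeq promoters of assembly GRCr8, from 250 bases before to 50 bases after the annotated start, were found for 52 of the 62 members. The heat shock element, searched on both strands as GAA, any 2 bases, TTC, any 2 bases and GAA, was in 5 of these 52, Hspd1, Hspe1, Hsph1, Dnaja1 and Cct4, and in 0.798% of all 33469 promoters. The ER stress response element, searched on both strands as CCAAT, any 9 bases and CCACG, was in 3 of the 52, Hspa5, Hsp90b1 and Dnajc3, and in 0.0657% of all promoters. A match is a description of the letters, and its absence from this window says nothing about the factor. Hspd1 and Hspe1 lie head to head on chromosome 9, so their promoters overlap by 211 bases and hold the same pair of overlapping heat shock elements, shown here on the Hspe1 strand. In the Dnaja1 and Cct4 promoters the element lies after the annotated start, as GAACTTTCCAGAA 9 to 21 bases past it in Dnaja1 and as TTCTGGAAGGTTC 25 to 37 bases past it in Cct4. The capitals below mark the heat shock element in the first 2 sequences and the ER stress response element in the other 3, all 5′ to 3′ on the strand of the gene.
Hspe1, chr9:64084207-64084326, strand +: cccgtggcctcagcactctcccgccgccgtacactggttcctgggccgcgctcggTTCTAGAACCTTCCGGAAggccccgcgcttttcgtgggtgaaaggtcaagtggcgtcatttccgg
Hsph1, chr12:10427248-10427367, strand +: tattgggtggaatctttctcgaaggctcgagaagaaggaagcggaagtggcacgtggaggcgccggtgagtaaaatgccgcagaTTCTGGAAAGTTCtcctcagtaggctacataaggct
Hspa5, chr3:38452896-38453015, strand +: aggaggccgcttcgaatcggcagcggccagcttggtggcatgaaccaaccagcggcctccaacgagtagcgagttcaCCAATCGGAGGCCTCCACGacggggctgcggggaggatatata
Hsp90b1, chr7:23012337-23012479, strand -: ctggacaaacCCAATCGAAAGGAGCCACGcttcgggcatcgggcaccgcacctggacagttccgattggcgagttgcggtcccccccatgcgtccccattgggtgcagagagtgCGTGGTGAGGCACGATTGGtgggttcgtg
Dnajc3, chr15:102432483-102432602, strand +: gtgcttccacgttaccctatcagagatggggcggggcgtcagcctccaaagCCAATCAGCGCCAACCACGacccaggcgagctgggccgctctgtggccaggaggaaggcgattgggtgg

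The first question was whether chaperone transcripts as a family differed between the diets. With limma, 0 of the 58 members had an adjusted p under 0.05, as did 0% of all probe sets, and the smallest adjusted p of a member was 0.281. At an unadjusted p under 0.05 there were 6 of 58 members, or 10.3%, against 13.6% of all 11509 genes, with 2 higher and 4 lower in cafeteria samples, where 6.73% of all genes were higher and 6.88% lower. The higher were Dnajc21 and Dnajc19, and the lower were Hsp90ab1, Dnajc12, Cct5 and Cct4. The arrays of the diets did not overlap for 17 members, 11 higher and 6 lower, which is 29.3% of members against 29.4% of all genes. Of all genes, 14.7% were apart in each direction. Both shares of members thus lay at or below those of genes in general.

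The differences were also small. The median over members was 0.025, against -0.0027 over all genes, and 47 of 58 members lay within 0.2 log2 units of no difference. Dnajc21 alone among the members differed by more than 0.5, which is 1.72% of members against 6.38% of all genes. The median absolute difference between the diets was 0.108 over members and 0.121 over all genes.

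**Figure D1:**
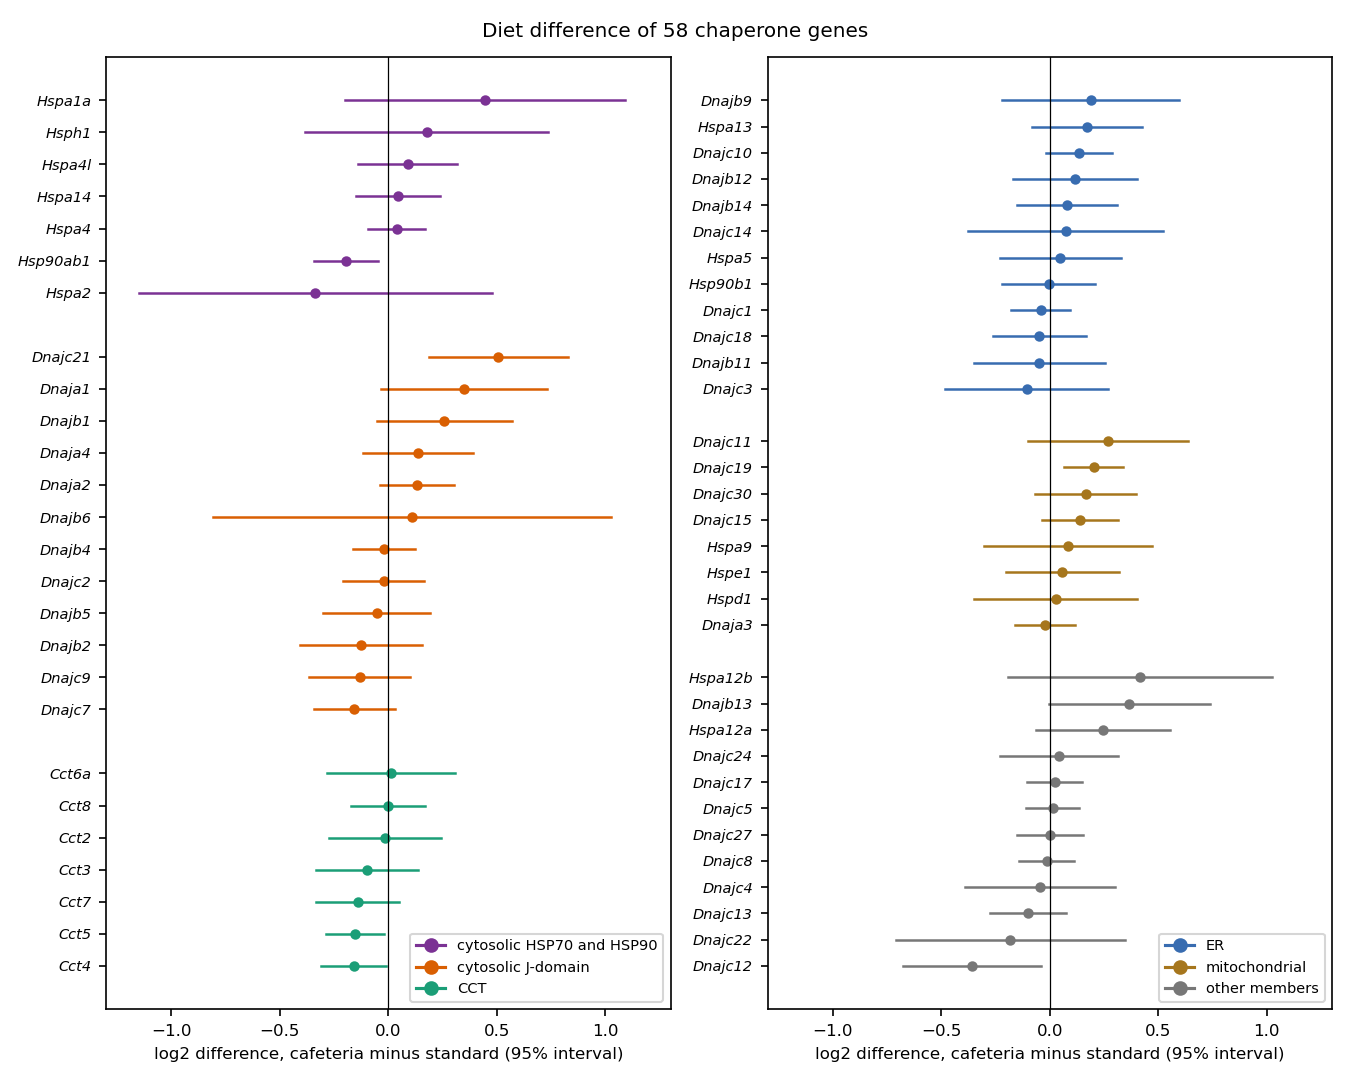
Difference in log2 expression, cafeteria minus standard, for the 58 chaperone genes that passed the filter, grouped by compartment. Points are the fitted differences and bars their 95% intervals from limma, unadjusted for the number of genes; the intervals that leave out 0 are those of Dnajc21, Dnajc19, Hsp90ab1, Dnajc12, Cct5 and Cct4.

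By compartment, the 7 cytosolic HSP70, HSP110 and HSP90 genes that passed the filter had a median difference of 0.045. The 12 cytosolic J-domain genes had a median of 0.045, with 6 on either side of 0. The chaperonin and the mitochondrial genes had the medians farthest from that of all genes, in opposite directions. The 7 CCT genes had a median of -0.10, with 6 lower and 1 higher. The 8 mitochondrial genes had a median of 0.11, with 7 higher and 1 lower. The ER genes stood between these groups. The 12 of them had a median of 0.061, with 7 higher and 5 lower. The remaining 12 members, which have other or less certain locations, had a median of 0.0065. At an unadjusted p under 0.05 in limma, where 13.6% of all genes were called, there were 1 of the 7 cytosolic HSP70, HSP110 and HSP90 genes, 1 of the 12 cytosolic J-domain genes, 2 of the 7 CCT genes, 0 of the 12 ER genes, 1 of the 8 mitochondrial genes and 1 of the remaining 12. None of these medians or counts was tested as a group. Over all genes, 49.2% of the differences were positive.

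**Figure D2:**
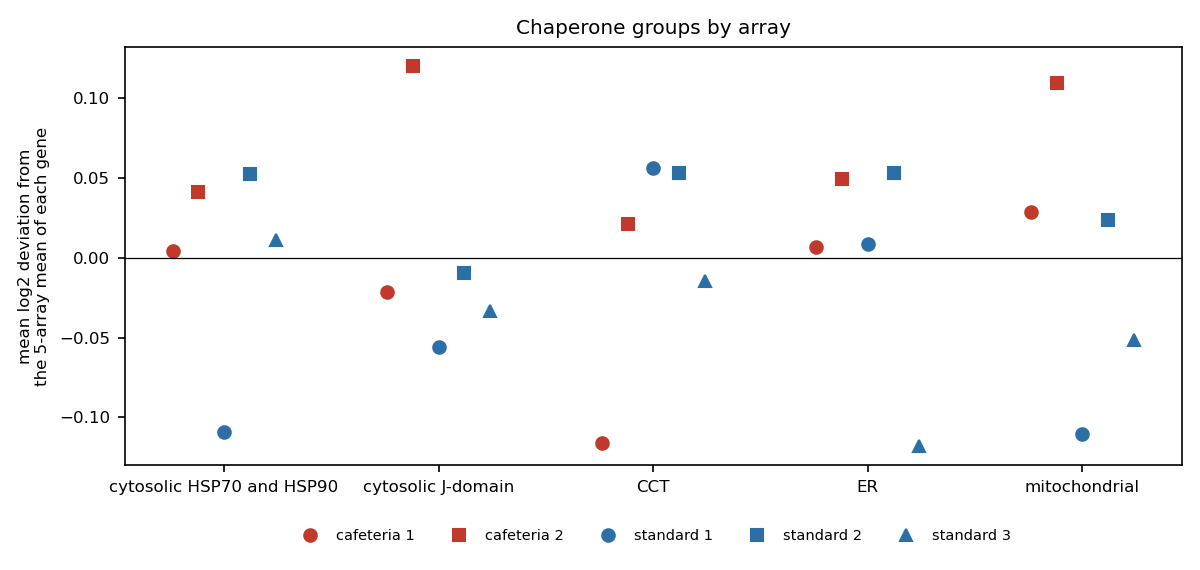
Mean log2 deviation of the genes of each chaperone group from their own 5-array means, 1 point per array, cafeteria in red and standard in blue, with a marker shape for each replicate number. The arrays of the diets overlapped in the cytosolic, CCT and ER groups, and both cafeteria arrays lay above all standard arrays in the mitochondrial group, at 0.029 and 0.11 against -0.11, 0.024 and -0.051.

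Among the cytosolic chaperones, 4 heat-inducible genes, Hspa1a, Hsph1, Dnaja1 and Dnajb1, had a higher mean in cafeteria samples, and for each of them cafeteria replicate 2 was well above cafeteria replicate 1. Hspa1a, an HSP70 that is made on stress, read 8.46 and 9.004 in cafeteria samples, against 8.07, 8.60 and 8.19 in standard samples. The arrays overlapped, and the difference was 0.45 ± 0.24 (SE; limma, adjusted p = 0.496). Leaving out cafeteria replicate 2 gave 0.18, and leaving out cafeteria replicate 1 gave 0.72. Hspa1a has a near-identical neighbour, Hspa1b, which is not analysed here and whose transcripts the Hspa1a probes may also detect.

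Hsph1, the HSP110 that releases nucleotide from HSP70, read 9.53 and 9.80 in cafeteria samples, against 9.26, 9.84 and 9.38 in standard samples, where the highest array of all was standard replicate 2. Its difference was 0.18 ± 0.21 (limma, adjusted p = 0.695), and its second probe set gave 0.13. Hspa4, a constitutive relative of HSP110, differed by 0.039 ± 0.049, at 9.05 and 9.10 in cafeteria samples, against 9.05, 9.04 and 9.02 in standard samples. Hspa2, an HSP70 best known from the testis, was the lowest of the cytosolic group at -0.34 ± 0.31, with a low signal throughout.

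For the J-domain partners of inducible HSP70 the diets were apart by a narrow margin. Dnaja1, which delivers unfolded clients to HSP70, read 10.32 and 10.68 in cafeteria samples, against 10.02, 10.28 and 10.16 in standard samples. Both cafeteria arrays were above all standard arrays, with a difference of 0.35 ± 0.14 (adjusted p = 0.427; exact permutation p = 0.1, two-sided), and the second probe set gave 0.33. Without cafeteria replicate 2 the difference was 0.17, and with cafeteria replicate 1 left out it was 0.53.

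Dnajb1, the HSP40 first known from heat-shocked cells, read 8.66 and 8.96 in cafeteria samples, against 8.45, 8.60 and 8.62 in standard samples. Both cafeteria arrays were again the highest, with a difference of 0.26 ± 0.12 (limma, adjusted p = 0.458). With cafeteria replicate 2 left out the difference was 0.11, and with cafeteria replicate 1 left out it was 0.41. The second Dnajb1 probe set gave 0.21, so both J-domain genes had probe sets that pointed the same way. Its arrays overlapped, however, with cafeteria replicate 1 and standard replicates 1 and 2 all at 8.15.

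Within each diet, the order of arrays was largely shared by these genes and by the mitochondrial pair Hspd1 and Hspe1. Over these 6 heat-inducible members, a group chosen after their values were seen, cafeteria replicate 2 was above cafeteria replicate 1 in 6 of 6. Standard replicate 2 was the highest standard array in 5 of 6, and standard replicate 1 was the lowest standard array in 6 of 6. Cafeteria replicate 1 was above every standard array in 2 of 6, so the order across the diets was not shared. These counts describe the chosen genes and are not a test, and the promoters of Hspd1 and Hspe1 overlap. Other related genes did not all share this order. Cct4, which also has a heat shock element, was higher on cafeteria replicate 2 but lowest among the standard arrays on replicate 3. The 13 HSP70 cochaperones and small heat shock proteins deviated by 0.10 and 0.090 in cafeteria samples, against -0.10, -0.11 and 0.015 in standard samples. The 15 heat shock factors and HSP90 cochaperones deviated by -0.039 and 0.031, against -0.022, 0.063 and -0.033. The mean deviation of the 6 genes was -0.027 and 0.29 in cafeteria samples, against -0.25, 0.087 and -0.096 in standard samples. The immediate early genes, which respond to handling and stress within minutes, deviated by -0.24 and 0.38 in cafeteria samples, against -0.045, 0.18 and -0.27 in standard samples, over 16 genes. Fos, one of them, read 7.88 and 10.28 in cafeteria samples, against 8.56, 8.94 and 6.93 in standard samples. Cafeteria replicate 2 and standard replicate 2 were thus the highest arrays of their diets for the 6 genes and for the immediate early genes. The part of the immediate early genes in the chaperone differences was not tested. The acinar transcripts entered only as a covariate and by leaving out standard replicate 1. The mean of the acinar genes was high on that array alone, so the covariate cannot separate them from other traits of that array. Over all 58 members, 38 were higher in cafeteria replicate 2 than in cafeteria replicate 1, which is 65.5% against 46.7% of all genes. Equal values count as not higher in both shares. The median of cafeteria replicate 2 minus cafeteria replicate 1 was 0.048 over members and 0 over all genes.

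**Figure D3:**
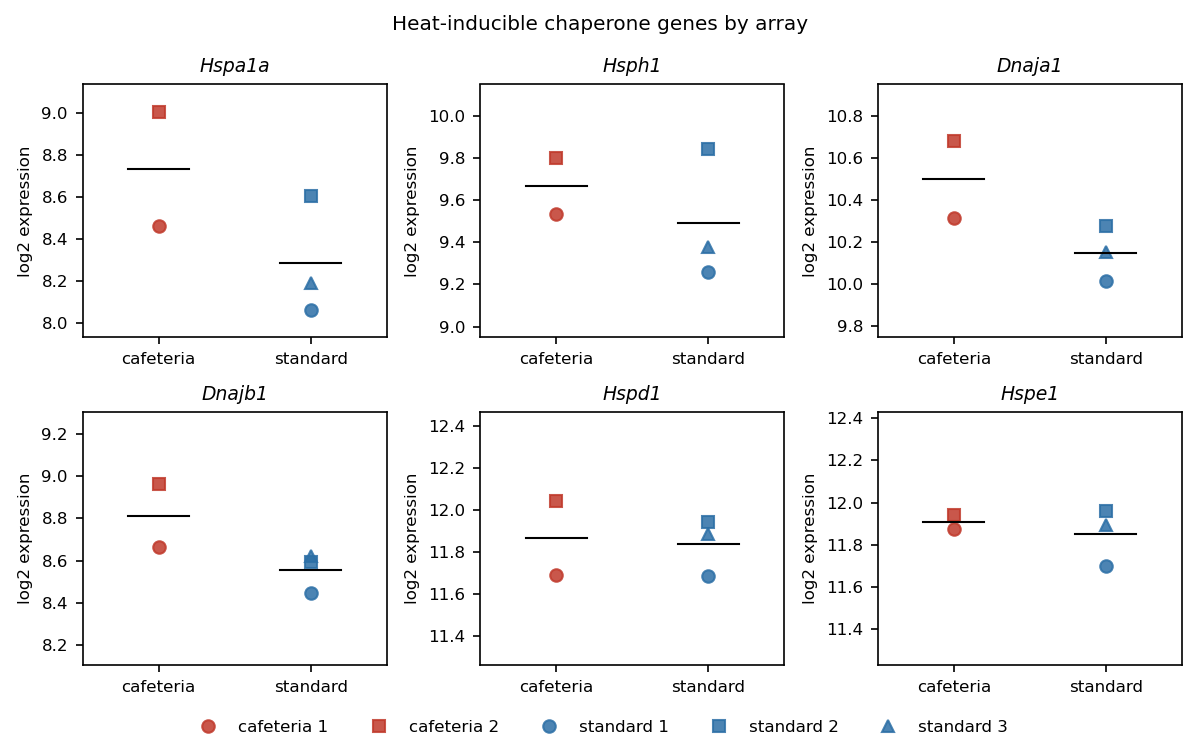
Log2 expression of 6 heat-inducible chaperone genes on each array, cafeteria left and standard right, with black bars for the group means (n = 2 and n = 3); each panel spans 1.2 log2 units. Cafeteria replicate 2 lay above cafeteria replicate 1 in all 6 panels, and standard replicate 1 was the lowest standard array in all 6.

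Hsp90ab1, the constitutive HSP90 of the cytosol, read 12.14 and 12.11 in cafeteria samples, against 12.30, 12.38 and 12.28 in standard samples. Both cafeteria arrays were below all standard arrays, and the difference was -0.20 ± 0.055, a 1.15-fold lower level, with a 95% interval of -0.34 to -0.049 (limma, adjusted p = 0.317). Its second probe set gave -0.33 with overlapping arrays, and the difference stayed between -0.21 and -0.17 when each array was left out in turn.

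Among the subunits of CCT, the ring that folds actin and tubulin, 3 of 7 had both cafeteria arrays below all standard arrays, as did 14.7% of all genes. Cct4 read 10.92 and 10.96 in cafeteria samples, against 11.12, 11.13 and 11.04 in standard samples, a difference of -0.16 ± 0.056 (limma, adjusted p = 0.371). Cct5 read 10.90 and 10.88 in cafeteria samples, against 11.05, 11.08 and 11.00 in standard samples. Its difference was -0.15 ± 0.051 (limma, adjusted p = 0.355), and its second probe set gave -0.13 with overlapping arrays. Cct7 read 10.05 and 10.13 in cafeteria samples, against 10.32, 10.23 and 10.15 in standard samples, a difference of -0.14 ± 0.071 (adjusted p = 0.482). The cafeteria arrays stood close together for all of them, within 0.082 of each other.

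The arrays of the other subunits overlapped. Cct3 read 9.71 and 9.83 in cafeteria samples, against 9.88, 9.97 and 9.75 in standard samples, a difference of -0.10 ± 0.089. Cct2 read 9.93 and 10.19 in cafeteria samples, against 10.12, 10.07 and 10.02 in standard samples, a difference of -0.015 ± 0.096. Cafeteria replicate 1 was the lowest array for both. Cct6a read 9.55 and 9.88 in cafeteria samples, against 9.68, 9.68 and 9.73 in standard samples, a difference of 0.013 ± 0.11. Cct8 read 9.36 and 9.51 in cafeteria samples, against 9.45, 9.43 and 9.42 in standard samples, a difference of -0.00071 ± 0.065, and its second probe set gave 0.16. For Cct6a and Cct8 the standard arrays all lay between the cafeteria arrays. The median of the 7 subunits was -0.15 with cafeteria replicate 2 left out, and -0.041 when cafeteria replicate 1 was left out instead. Some lists of markers of other cell types were lower in cafeteria samples too, with a negative difference for each gene. Their medians were -0.46 over 9 T cell genes and -0.23 over 7 macrophage genes. They were -0.74 over 7 smooth muscle and pericyte genes and -0.45 over 6 endothelial genes. Other lists were mixed. Positive differences were found for 3 of 4 nerve genes (median 0.31), 2 of 3 striated muscle genes (median 0.28) and 1 of 6 B and plasma cell genes (median -0.62). The T cell genes deviated by -0.073 and -0.58 in cafeteria samples, against 0.42, 0.29 and -0.057 in standard samples. The macrophage genes deviated by 0.0069 and -0.35 in cafeteria samples, against 0.27, 0.24 and -0.16 in standard samples. The smooth muscle and pericyte genes deviated by -0.32 and -0.67 in cafeteria samples, against 0.55, -1.17 and 1.62 in standard samples. Cafeteria replicate 2 was the lower cafeteria array for these 3 lists. The endothelial genes deviated by -0.50 and -0.045 in cafeteria samples, against 0.20, 0.16 and 0.18 in standard samples. The CCT genes deviated by -0.12 and 0.021 in cafeteria samples, against 0.056, 0.053 and -0.014 in standard samples. Cafeteria replicate 1 was thus the lower cafeteria array for the endothelial and the CCT genes, as it was for every other chaperone group and the fat cell markers. The part of these cell types in the CCT values was not tested.

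**Figure D4:**
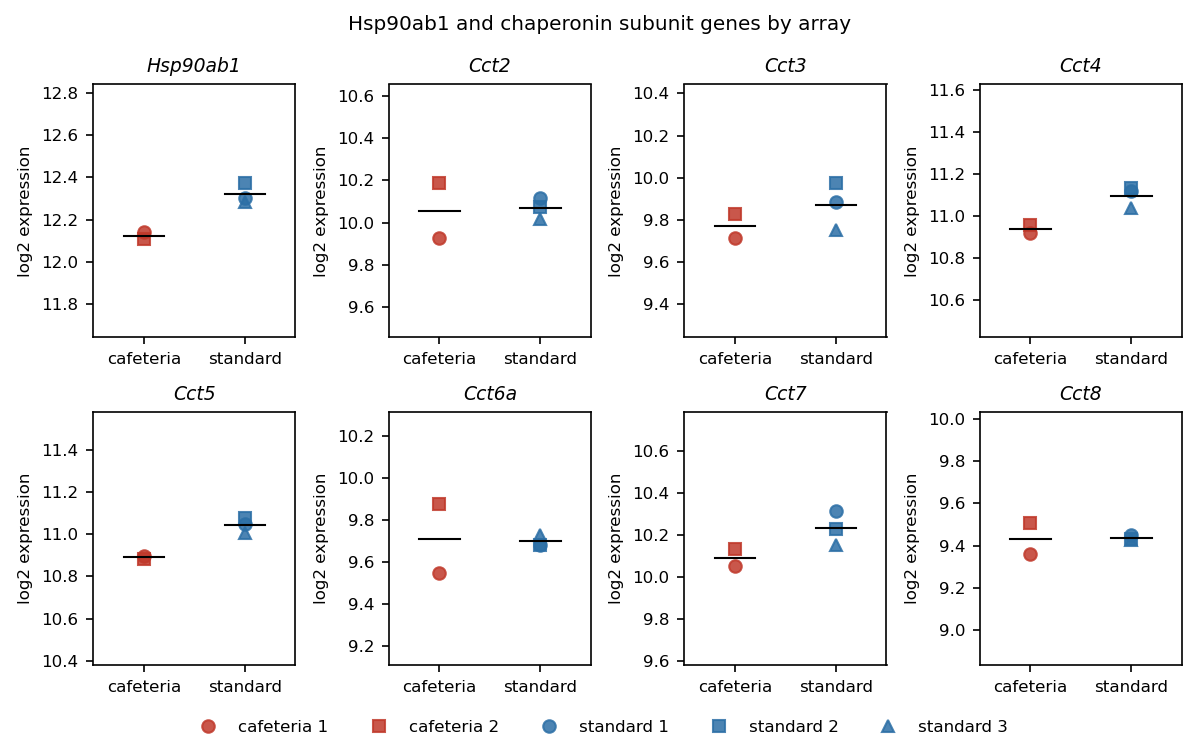
Log2 expression of Hsp90ab1 and the 7 CCT subunit genes on each array, cafeteria left and standard right, with black bars for the group means (n = 2 and n = 3); each panel spans 1.2 log2 units. The arrays of the diets were apart for Hsp90ab1, Cct4, Cct5 and Cct7 and overlapped for Cct2, Cct3, Cct6a and Cct8.

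The remaining cytosolic J-domain genes were mixed. Dnajc21, whose yeast counterpart acts in the maturation of the large ribosomal subunit, had the smallest p among members. It read 6.72 and 6.88 in cafeteria samples, against 6.11, 6.44 and 6.33 in standard samples, which gives 0.51 ± 0.12 or 1.42-fold (limma, adjusted p = 0.281). Its only probe set is of the type that may detect several transcripts. Dnaja2, an HSP70 partner like Dnaja1, differed by 0.13 ± 0.065, with both cafeteria arrays above the standard ones. Dnajc7, which passes clients between HSP70 and HSP90, read 9.32 and 9.47 in cafeteria samples, against 9.51, 9.53 and 9.61 in standard samples, a difference of -0.16 ± 0.070. A dimmer probe set of Dnajc7 gave 0.18, also with the arrays apart, so its direction is unsettled. Dnajb6, a suppressor of protein aggregation, showed the widest gap within a diet, at 8.66 and 9.62 in cafeteria samples, against 9.32, 9.03 and 8.73 in standard samples.

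In the ER, the arrays of both main chaperones overlapped. Hspa5, the HSP70 of the ER lumen and the usual marker of the unfolded protein response, read 11.52 and 11.66 in cafeteria samples, against 11.59, 11.65 and 11.39 in standard samples. The difference was 0.048 ± 0.11, with a 95% interval of -0.23 to 0.33 (limma, adjusted p = 0.837). Hsp90b1, which folds integrins and Toll-like receptors, read 12.00 and 11.92 in cafeteria samples, against 12.07, 11.96 and 11.86 in standard samples, a difference of -0.0054 ± 0.081 with an interval of -0.22 to 0.21. Neither main ER chaperone thus differed beyond the spread between its arrays. Dnajc3, a brake on the ER stress kinase PERK and the third gene with the ER stress response element shown, read 8.31 and 8.22 in cafeteria samples, against 8.32, 8.60 and 8.18 in standard samples, a difference of -0.11 ± 0.14.

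Of the 12 ER genes, 2, both J-domain genes, had both cafeteria arrays above all standard arrays, close to the 14.7% of all genes that did. Dnajc10, a disulfide reductase that helps clear misfolded proteins, read 9.47 and 9.50 in cafeteria samples, against 9.40, 9.29 and 9.36 in standard samples, a difference of 0.13 ± 0.058 (limma, adjusted p = 0.442), with 0.13 on its second probe set. Dnajb12, anchored in the ER membrane, differed by 0.12 ± 0.11 and by 0.025 without standard replicate 1, and its second probe set gave 0.026 with overlapping arrays. The arrays of the other J-domain genes named here overlapped. Dnajb9, a partner of Hspa5 in the disposal of misfolded proteins, read 8.45 and 8.29 in cafeteria samples, against 8.37, 8.24 and 7.93 in standard samples, a difference of 0.19 ± 0.15. Dnajb11, a partner in folding, read 8.49 and 8.69 in cafeteria samples, against 8.68, 8.75 and 8.48 in standard samples, a difference of -0.048 ± 0.11. Hspa13, an HSP70-like protein of microsomes, differed by 0.17 ± 0.095. Standard replicate 3 was the lowest array of the ER group, with a mean deviation of -0.12, and without it the ER median was -0.039.

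The partners of these genes from the ER folding list gave a median difference of 0.019 over 17 genes, with 2 higher and 0 lower at an unadjusted p under 0.05, where 6.73% of all genes were higher and 6.88% lower. They were Sil1, the nucleotide exchange factor of Hspa5, at 0.28 ± 0.076, and Erp44, which retains unfinished secretory proteins, at 0.17 ± 0.063. The other of the 3 with the smallest p was Pdia4, a protein disulfide isomerase, at -0.33 ± 0.19. Regulators of ER stress gave 2 higher and 3 lower of 14, against 13.6% of all genes called in either direction. They were Derl2, a component of the export channel for misfolded proteins, by 0.24 ± 0.057, Herpud1 by 0.32 ± 0.12, Xbp1, a transcription factor of the unfolded protein response, by -0.22 ± 0.057, Edem1 by -0.33 ± 0.12 and Atf6b by -0.31 ± 0.12. Their adjusted p over all probe sets was 0.281 or more in limma. Over the same 14 genes the median was -0.0033.

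In mitochondria, the arrays overlapped for the matrix folding genes and were apart for 4 J-domain genes of the import and membrane apparatus. Hspa9, the HSP70 of the matrix, read 10.03 and 10.35 in cafeteria samples, against 9.92, 10.17 and 10.22 in standard samples, a difference of 0.085 ± 0.15, and its 4 probe sets ranged from -0.42 to 0.37. Hspd1, the HSP60 of the chamber, read 11.69 and 12.04 in cafeteria samples, against 11.69, 11.94 and 11.88 in standard samples, a difference of 0.027 ± 0.14. Hspe1, its HSP10 lid, read 11.87 and 11.94 in cafeteria samples, against 11.70, 11.96 and 11.89 in standard samples, a difference of 0.057 ± 0.098. The genes that share the head-to-head promoter thus both overlapped between diets, and both were lowest on standard replicate 1 among the standard arrays.

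Dnajc19, a subunit of the motor that pulls proteins through the inner membrane, read 9.98 and 10.02 in cafeteria samples, against 9.83, 9.79 and 9.77 in standard samples. Both cafeteria arrays were above all standard arrays, with a difference of 0.20 ± 0.051 or 1.15-fold (limma, adjusted p = 0.293), and it stayed between 0.18 and 0.22 when each array was left out in turn. Dnajc15, a relative of the same motor subunit, read 9.41 and 9.34 in cafeteria samples, against 9.17, 9.31 and 9.24 in standard samples, a difference of 0.14 ± 0.066. Dnajc30 read 7.80 and 7.63 in cafeteria samples, against 7.45, 7.62 and 7.59 in standard samples, a difference of 0.17 ± 0.087. Dnajc11, which is tied to the cristae-shaping complex, read 7.14 and 7.18 in cafeteria samples, against 7.02, 7.02 and 6.64 in standard samples, a difference of 0.27 ± 0.14 that was 0.15 without standard replicate 3. The second Dnajc11 probe set past the filter gave 0.15 with overlapping arrays. On the brightest probe sets, these 4 of the 8 mitochondrial genes had non-overlapping arrays, where 14.7% of all genes were apart in that direction. Dnaja3, the matrix partner of Hspa9, differed by -0.023 ± 0.052.

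The mitochondrial group deviated by 0.029 and 0.11 in cafeteria samples, against -0.11, 0.024 and -0.051 in standard samples, and its lowest array was the one with acinar transcripts. Without standard replicate 1 the group's median was 0.047, and with the acinar covariate it was 0.056. Fat cell markers deviated by 0.20 and 0.36 in cafeteria samples, against -0.30, -0.13 and -0.13 in standard samples, so they too were lowest there. Their part in the mitochondrial values was not tested. Grpel1, the nucleotide exchange factor of Hspa9, differed by 0.28 ± 0.085 and was the 1 gene of 12 mitochondrial folding partners called at an unadjusted p under 0.05, a share below the 13.6% of all genes. The next on that list were Spg7, a protease of the inner membrane, at 0.45 ± 0.23, and Htra2 at -0.13 ± 0.079. The median of that list was 0.042.

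**Figure D5:**
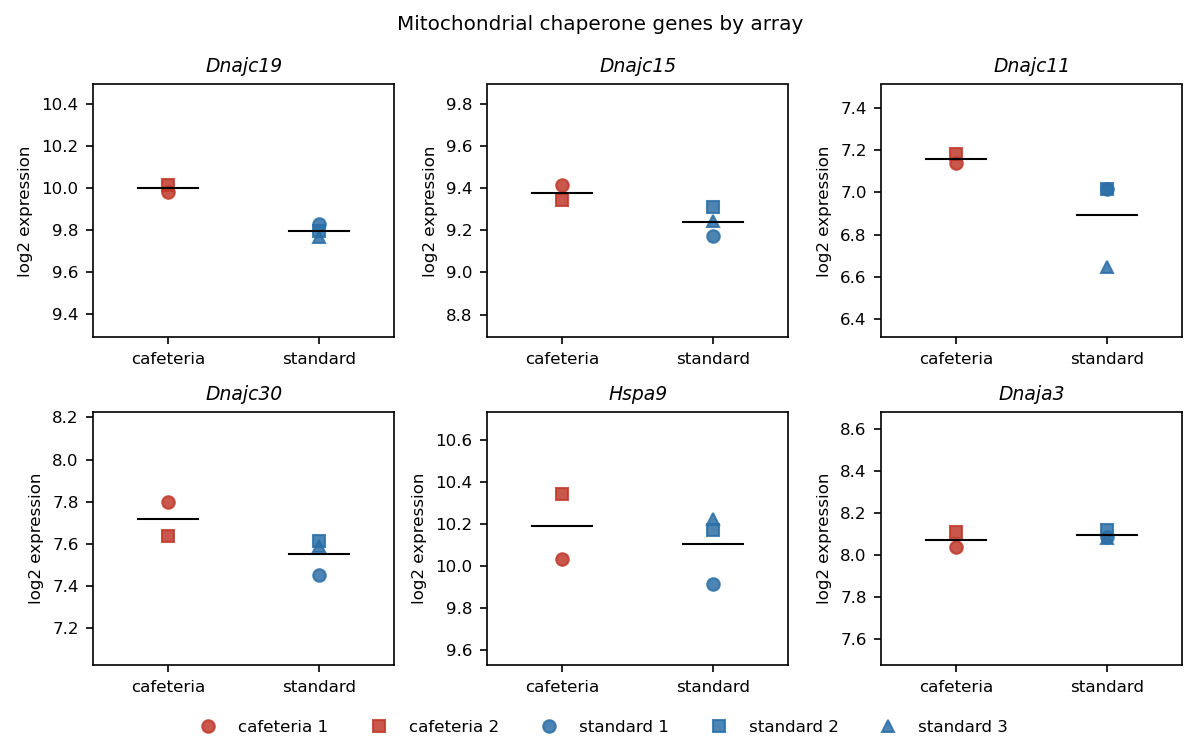
Log2 expression of 6 mitochondrial chaperone genes on each array, cafeteria left and standard right, with black bars for the group means (n = 2 and n = 3); each panel spans 1.2 log2 units. Both cafeteria arrays lay above all standard arrays for Dnajc19, Dnajc15, Dnajc11 and Dnajc30, and the arrays overlapped for Hspa9 and Dnaja3.

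Of the members with other locations, Dnajc12, which works with HSP70 on the hydroxylases of aromatic amino acids, read 6.64 and 6.92 in cafeteria samples, against 7.12, 7.26 and 7.03 in standard samples. The difference was -0.36 ± 0.12 (limma, adjusted p = 0.354). Both cafeteria arrays were below all standard arrays, and the difference was -0.22 with cafeteria replicate 1 left out and -0.50 with cafeteria replicate 2 left out. Dnajb13, known from the cilium axoneme, read 5.03 and 4.98 in cafeteria samples, against 4.59, 4.87 and 4.45 in standard samples, a difference of 0.37 ± 0.14, with every value below the median probe set of its array. Hspa12b, an atypical HSP70 of endothelial cells, differed by 0.42 ± 0.23 on its brightest probe set, and its other probe sets gave 0.69 and -0.28, each with the arrays apart. The 6 endothelial markers measured were all lower in cafeteria samples, with a median of -0.45 and deviations of -0.50 and -0.045 in cafeteria samples, against 0.16 to 0.20 in standard samples, and their part in the Hspa12b values was not tested. Of 20 members with several probe sets past the filter, 13 had the same sign on all and 7 did not.

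Cochaperones act beside the members. Of 13 HSP70 cochaperones and small heat shock proteins, 3 were higher and 0 lower at an unadjusted p under 0.05, against 6.73% higher and 6.88% lower of all genes. The median was 0.11, with 8 positive and 5 negative differences. This list, with Cryab in it, was chosen with earlier results of these data known. Besides the small heat shock protein Cryab, at 1.44 ± 0.079 (limma, adjusted p = 0.0958), the 3 were Bag4 and St13. Bag4, a nucleotide exchange factor of HSP70, read 7.81 and 7.69 in cafeteria samples, against 7.12, 7.01 and 7.07 in standard samples, a difference of 0.68 ± 0.069 (adjusted p = 0.195). St13, which stabilises HSP70 on its clients, read 10.68 and 10.92 in cafeteria samples, against 10.46, 10.55 and 10.39 in standard samples, a difference of 0.34 ± 0.098 (adjusted p = 0.321).

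Heat shock factors and HSP90 cochaperones had a median of -0.034 over 15 genes, with 0 called in limma even at an unadjusted p under 0.05. The 3 with the smallest p were Chordc1 at 0.33 ± 0.18, Ptges3 (the p23 cochaperone) at -0.11 ± 0.067 and Sugt1 at -0.10 ± 0.065. Hsf1, the heat shock factor itself, differed by -0.11 ± 0.12. The CCT partners, with the prefoldin subunits and the CCT subunit Tcp1, had a median of 0.020 over 9 genes and 0 called in the same way. Their smallest p values were those of Pfdn2 at 0.14 ± 0.071, Pfdn6 at -0.12 ± 0.063 and Pfdn4 at 0.13 ± 0.083, and Tcp1 differed by -0.034 ± 0.090.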

How the data were processed

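Fat around the pancreas of 2 cafeteria-fed and 3 standard-fed rats was hybridised to 1 rat genome array each. The values are log2 expression levels that the authors deposited, 1 per probe set. RMA, in the affy package, is named without a version, per the submitters' processing notes. RMA equalises the array distributions and could hide a shift common to most transcripts. No scan date is given in the sources used here, so batches were not tested. The replicates are independent samples per the labels.

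After removal of 57 control probe sets, 21729 of 31042 probe sets lay above the 30th percentile of means. The fit used limma 3.58.1 under R 4.3.3 (lmFit, then eBayes), cafeteria minus standard, Benjamini-Hochberg adjusted at 0.05, with 3 residual degrees of freedom. Procedures were tested on simulated arrays. Symbols come from GEO's platform annotation, with 20826 probe sets naming 1 gene, 436 several genes and 9780 no gene; all 62 members matched RefSeq by gene identifier. Exactly equal values between arrays were present in 18 of 58 members (31.0%, against 43.7% of all genes) and can make standard errors too small. Probes detect related copies to an unknown degree. No pair of arrays shared more than 14.7% of values, so none was merged.

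The members, the compartment, partner and marker lists, and the rule for named genes were chosen with earlier results of these data known. The rule names the core chaperones, the 6 members with the smallest p in each direction, the extremes of each compartment and the 3 smallest p of each partner list. Genes named beyond it (Dnaja2, Dnajb6, Dnajb12, Dnajc15, Dnajc30, Hspa13, the called ER stress regulators, Hsf1, Tcp1, Cela3b and Cpa1) were chosen after their values were seen. Promoters are from RefSeq, GRCr8. Python 3.11.15 and matplotlib 3.10.9 made the figures. Alternatives were other filters, normalizations, variance models, probe set choices, an acinar covariate, the replicate number as a block, and each array left out.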

Additional observations from a re-analysis of the deposited data

How the results depend on the processing

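No member passed an adjusted p of 0.05 in limma under any filter, normalization, variance model, covariate, block or left-out array, and no probe set of any gene did. The smallest adjusted p of a member ranged from 0.180 without cafeteria replicate 1 to 0.493 without standard replicate 1. The count of members at an unadjusted p under 0.05, 6 as reported, was 3 with the acinar covariate and 3 to 11 when each array was left out, with 11 without cafeteria replicate 1 and 3 without standard replicate 1. Over all probe sets, alternatives chosen after seeing the data gave 1986 to 4174 with an array left out, 4174 without cafeteria replicate 1, against 2754. Replicate numbers are not known to pair animals. Deviations of equal-numbered arrays correlated at 0.079 and -0.037. The deviations of the cafeteria arrays mirror each other, so these correlations cannot show whether animals were paired. With the replicate block 5 members and 2206 probe sets were counted, and the ER median was -0.039. No cafeteria array has the number of standard replicate 3, so the block gave the same differences as leaving that array out.

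Leaving out arrays gave ER medians of -0.039 to 0.11, mitochondrial medians of 0.047 to 0.15, cytosolic J-domain medians of -0.0054 to 0.069 and CCT medians of -0.16 to -0.041. The cytosolic J-domain median was -0.021 without probe sets marked as possibly detecting several transcripts, which drops Dnajc21. The sign turned, with a shift above 1 standard error, for Cct2, which ran from -0.14 to 0.12 over left-out arrays, Cct6a, which ran from -0.15 to 0.18, Cct8, from -0.075 to 0.073, Hspa9, from -0.071 to 0.24, and Hspd1, from -0.15 to 0.20. With the mean of the probe sets of a gene they turned for Cct8, at 0.080, and Dnajc7, at 0.0095. The cause was not tested. The number of arrays limits the precision of all values.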
